A study of Sus scrofa with 15 samples.

Results

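The 10 genes described here encode inflammatory cytokines, chemokines, the inducible prostaglandin enzyme, the adhesion proteins of activated vessel walls and a feedback inhibitor of cytokine signalling. They were chosen by name, as IL6, IL1B, CXCL8, CXCL2, CCL2, PTGS2, SELE, ICAM1, VCAM1 and SOCS3, and they are 10 of the 26654 genes in the deposited tables. Polyadenylated RNA was sequenced from the penile corpus cavernosum of pigs (Sus scrofa), the erectile tissue built of blood-filled spaces lined by endothelium. There were 15 libraries, 3 in each of 5 groups. The labels call them normal, defect and implantation A, which the submitters planned to compare pairwise, and implantation B with ECs+ implantation, which they planned to compare separately. The labels give no age, sex, breed, time after surgery, implant material or allele, they do not spell out ECs, and they do not say how implantation A differs from implantation B. Nothing in them ties a library to an animal. Each p-value therefore sets a group difference against the scatter of libraries within groups, and that scatter may be technical only.

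IL-6 and IL-1β, the products of IL6 and IL1B, are secreted early after tissue injury and act on most neighbouring cells. IL-1β signals through MyD88 and NF-κB, and among its classical target genes are IL6, CXCL8, CXCL2, CCL2, PTGS2, SELE, ICAM1 and VCAM1. IL-6 signals through the shared receptor chain gp130, encoded by IL6ST, and through JAK kinases and STAT3. STAT3 induces SOCS3, which binds gp130 and JAKs and shuts the signal off. Chemokines draw leukocytes out of the blood, while E-selectin, ICAM-1 and VCAM-1 on the endothelium let them roll, stop and cross the vessel wall.

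Total counts ran from 17234169 to 19644793 in 13 libraries, but were 207769 in defect 1 and 250178 in defect 2. In those shallow libraries a gene with 3 counts stands at 14.4 and 11.99 CPM (counts of the library scaled to a common total of 1e+06), against 0.169 in defect 3 and 0.153 to 0.174 elsewhere. A value of 0 there does not show that a transcript was absent. The description lines of the ECs+ implantation libraries also carry the name of normal 3, and their identity here rests on their titles. No libraries held identical counts. Endothelial and smooth muscle markers of the labelled tissue were present in every group: the summed level of 14 endothelial genes averaged 5268 CPM in normal, 2803 in defect, 2917 in implantation A, 1978 in implantation B and 4775 in ECs+ implantation. In such bulk samples fewer cells of a type and less RNA per cell cannot be told apart. With library size in place of TMM (trimmed mean of M-values) scaling, the median log2 fold change of all genes moved by -0.37 for defect against normal, 0.31 for implantation A against defect and 0.24 for ECs+ implantation against implantation B. The share of calls that were higher then went from 50.1% to 28%, from 48.8% to 81.8% and from 49.8% to 64%, respectively. For implantation B it went from 53.5% to 21.9% against implantation A and from 50.3% to 32.9% against normal. For implantation A against normal it went from 49.9% to 44.3%, and for ECs+ implantation against normal from 50.1% to 42.9%. The fold changes below are therefore relative to the TMM scaling.

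IL6 (chromosome 9, 91506421 to 91510830, on Sscrofa11.1, as are all positions below) was a scarce transcript in 3 of the groups. Its TMM-scaled level was 0.524, 0.468 and 0.464 CPM in normal 1, 2 and 3, and 0.484, 0.550 and 0.509 CPM in implantation A. In ECs+ implantation it was 0.328, 0.604 and 0.366 CPM. These 9 libraries overlapped, and neither neighbouring pair among these groups passed the test in the fit of all 15 libraries (adjusted p = 0.868 and 0.729, edgeR quasi-likelihood test with Benjamini-Hochberg adjustment, as for every adjusted p below unless another tool is named). Implantation B stood at 7.29, 6.39 and 6.84 CPM, above every library of those groups. The defect libraries gave 4.67, 0 and 5.15 CPM, from 1, 0 and 77 counts, so the defect level rests on defect 3. The libraries of implantation B lay above those of defect without overlap, but the difference did not pass the test (log2 fold change 0.46 ± 0.259 SE, adjusted p = 0.181). With so few defect counts this does not show equal levels.

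IL1B (chromosome 3, 43670126 to 43677125) was also scarce. Normal gave 0.105, 0.260 and 0.206 CPM and implantation A 0.242, 0.09999 and 0.153 CPM, with overlapping libraries. ECs+ implantation stood at 0.931, 0.714 and 0.575 CPM, above normal without overlap (log2 fold change 1.91 ± 0.538 SE, adjusted p = 0.00037). Implantation B reached 3.86, 2.54 and 2.43 CPM, above ECs+ implantation without overlap. The defect libraries held 0, 2 and 32 counts, or 0, 8.01 and 2.14 CPM. Pigs carry a near-identical copy, IL1B2, which had 4 counts in normal 3 and 0 in the other 14 libraries. How reads shared by the copies were counted is not given, so IL1B levels are uncertain by an amount that these counts do not bound.

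CXCL8 (interleukin-8, chromosome 8, 69932646 to 69935861), a neutrophil chemokine, was nearly undetected in normal tissue, with 2, 0 and 0 counts, or 0.105, 0 and 0 CPM. Implantation A had 0.0484, 0.09999 and 0.356 CPM. The other groups were higher: 4.67, 4.004 and 3.28 CPM in defect (1, 1 and 49 counts), 2.33, 1.63 and 2.26 CPM in implantation B and 1.75, 4.12 and 2.66 CPM in ECs+ implantation. From pooled counts the ratio to normal was 95.5 in defect (exact 95% interval 25.1 to 810), 82.0 in ECs+ implantation (22.3 to 683), 60.2 in implantation B (16.2 to 503) and 4.78 in implantation A (1.02 to 44.9). These intervals cover counting error only, and no order among defect, ECs+ implantation and implantation B was resolved (adjusted p = 0.591 and 0.128 for the neighbouring pairs).

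CXCL2 (chromosome 8, 70157253 to 70159145), which acts on the neutrophil receptor CXCR2, had another order. ECs+ implantation was highest, at 33.8, 46.4 and 40.1 CPM, and implantation B followed at 9.49, 9.98 and 9.79 CPM. Implantation A had 1.93, 2.75 and 3.21 CPM and normal 1.21, 1.30 and 2.27 CPM, and these overlapped. Defect gave 0, 0 and 2.54 CPM, from 0, 0 and 38 counts, so the defect mean is set by the depth of defect 1 and 2. The step from ECs+ implantation to implantation B was 2.04 ± 0.118 SE on the log2 scale (adjusted p = 3.87e-23).

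CCL2 (chromosome 12, 40798109 to 40800013), the monocyte chemokine read by CCR2, separated all 5 groups by TMM-scaled CPM. Its level was 2.88, 4.63 and 4.02 CPM in normal, then 10.3, 10.3 and 9.41 CPM in implantation A. Implantation B gave 36.9, 37.0 and 36.3 CPM, ECs+ implantation 42.7, 47.8 and 46.4 CPM, and defect 74.8, 80.1 and 81.9 CPM. None of the neighbouring groups overlapped, and all 4 neighbouring steps passed the test. On the deposited TPM, described below, ECs+ implantation (120.8 to 138.1 TPM) overlapped implantation B (121.2 to 124.5 TPM). For CCL2 the shallow defect libraries stood beside defect 3, but on 16 and 20 counts against 1224.

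Between CXCL8 and CXCL2 on chromosome 8, at 70008225 to 70010360, lies AMCF-II, a porcine neutrophil chemokine listed in RefSeq with the synonym CXCL6. It is not among the 10 genes and was picked after its values were seen. It had 0 counts in all normal libraries and 51.4, 52.0 and 53.2 CPM in defect (11, 13 and 795 counts). Against a floor of 3 counts over the normal group the defect level was at least 1023-fold higher. Implantation B had 3.06, 2.09 and 3.13 CPM, at least 53.5-fold above that floor, while implantation A (0.193, 0.350 and 0.0509 CPM) and ECs+ implantation (0.164, 0.220 and 0.0522 CPM) held 12 and 8 counts in all. So within this chemokine cluster AMCF-II was highest in defect and CXCL2 in ECs+ implantation.

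PTGS2 (cyclooxygenase-2, chromosome 9, 127850164 to 127858866) makes the prostaglandin precursor in activated cells. Normal gave 3.98, 3.22 and 3.87 CPM and implantation A 4.40, 4.85 and 4.12 CPM, which did not overlap but did not pass the test (adjusted p = 0.11 in the fit of 15). Implantation B stood at 20.3, 22.5 and 19.8 CPM and ECs+ implantation above it at 30.4, 29.8 and 31.8 CPM. Defect had 0, 0 and 3.41 CPM, from 0, 0 and 51 counts, and defect 3 lay within the range of normal.

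SELE (E-selectin, chromosome 4, 81289061 to 81299657), made by activated endothelium, had non-overlapping libraries in every group. The levels rose from 3.46, 3.43 and 4.28 CPM in normal to 9.87, 10.6 and 9.62 CPM in implantation A and 20.1, 23.2 and 23.1 CPM in ECs+ implantation. Defect followed at 32.7, 32.0 and 42.2 CPM, from 7, 8 and 631 counts, and implantation B was highest at 51.4, 51.1 and 50.6 CPM. The levels of defect 1 and 2, and so the lack of overlap around defect, rest on those few counts. All 4 neighbouring steps passed, the smallest being implantation B over defect (log2 fold change 0.30 ± 0.102 SE, adjusted p = 0.0197).

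ICAM1 (chromosome 2, 69097136 to 69107722), which binds leukocyte β2 integrins and is also made outside the endothelium, covered a smaller span. Normal gave 27.3, 25.6 and 25.4 CPM and ECs+ implantation 24.7, 26.1 and 24.9 CPM, with overlapping libraries (adjusted p = 0.549). Implantation A stood slightly above them at 28.1, 31.0 and 29.6 CPM, implantation B at 44.95, 44.997 and 47.5 CPM and defect at 65.4, 52.0 and 74.6 CPM. The defect libraries, with 14, 13 and 1114 counts, spread most, yet all were above implantation B. The few counts of defect 1 and 2 leave their levels imprecise.

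VCAM1 (chromosome 4, 117496914 to 117511211) binds the integrin of monocytes and lymphocytes that holds ITGA4. It was high in defect, at 131, 196 and 174 CPM (28, 49 and 2605 counts), and in ECs+ implantation, at 176, 170 and 172 CPM. These groups overlapped (log2 fold change of ECs+ implantation over defect -0.01 ± 0.0663 SE, adjusted p = 0.95). Implantation B had 79.7, 76.5 and 81.0 CPM, implantation A 63.5, 67.7 and 65.3 CPM, and normal 49.7, 52.5 and 57.9 CPM, each without overlap at this scaling. On the deposited TPM, described below, implantation B (52.9 to 55.8 TPM) overlapped implantation A (50.6 to 54.6 TPM). By TMM-scaled CPM VCAM1 and ICAM1 therefore differed in where ECs+ implantation stood: beside defect for VCAM1, beside normal for ICAM1. By TPM ECs+ implantation lay below defect for VCAM1, without overlap (96.8 to 97.96 against 101 to 150 TPM). For ICAM1 it lay below normal by TPM, also without overlap (14.1 to 15.2 against 19.4 to 20.7 TPM).

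SOCS3 (chromosome 12, 3643832 to 3647015) spanned 18.7-fold between normal and implantation B. Its level was 14.8, 15.03 and 12.99 CPM in normal, 40.5, 40.0 and 40.8 CPM in implantation A and 70.1, 124 and 123 CPM in defect. The defect values came from 15, 31 and 1832 counts, so the lower level of defect 1 rests on few counts. ECs+ implantation gave 189, 194 and 187 CPM and implantation B 271, 265 and 265 CPM. By CPM no neighbouring groups overlapped and all 4 steps passed. On the deposited TPM, described below, ECs+ implantation (98.9 to 103 TPM) lay within the range of defect (88.9 to 111 TPM). Over the 10 genes, 27 of 40 neighbouring pairs of groups passed the test, and 11 of the 13 that did not had overlapping libraries. These counts are descriptions, since the groups were ordered by the same values and no such count was made over all genes. In contrasts of that fit given below, 50.8%, 71.3% and 73.8% of all genes were called. The fitted fold went against the order for CXCL2 in normal over defect (-0.62), IL1B in defect over implantation B (-0.38) and VCAM1 in ECs+ implantation over defect (-0.01).

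**Figure D1:**
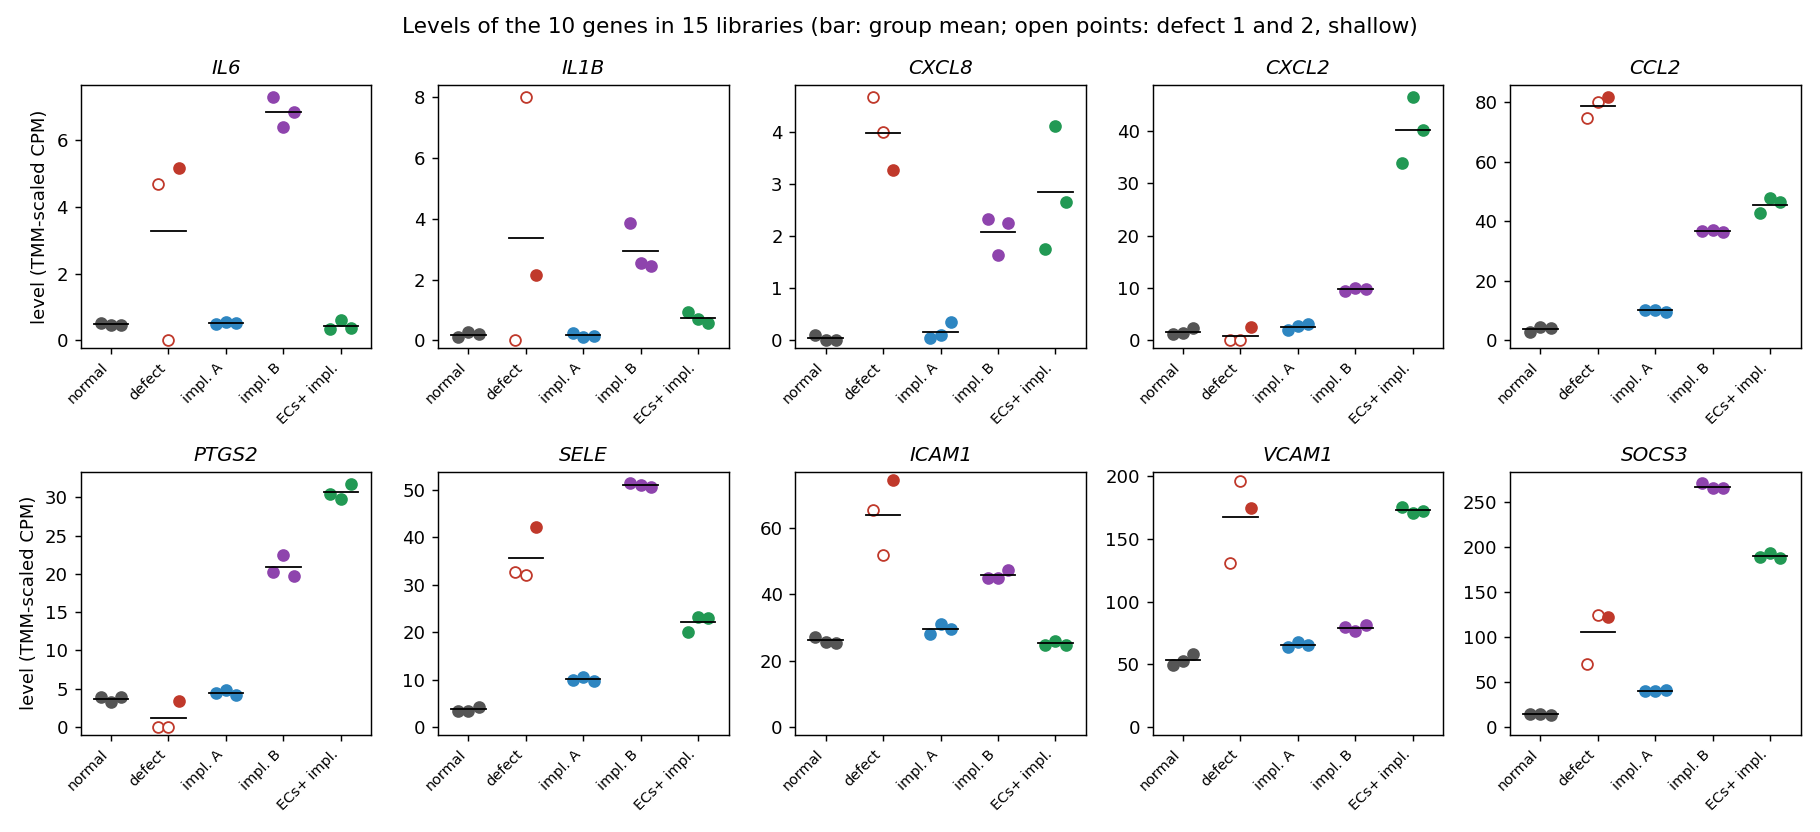
TMM-scaled level in CPM of each of the 10 genes in every library, with 1 panel per gene and the 5 groups along the horizontal axis; open points are the shallow libraries defect 1 and 2. IL6 and IL1B stand at under 1 CPM in normal and implantation A, CCL2 is highest in defect (74.8 to 81.9 CPM), CXCL2 and PTGS2 in ECs+ implantation, and SELE and SOCS3 in implantation B.

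Deposited TPM, a transcript's length-corrected share of its library, allow levels to be ranked between genes within a group. In normal tissue VCAM1 led at 39.7 ± 3.25 TPM (SD, n = 3), followed by ICAM1 at 19.9 ± 0.722 TPM and CCL2 at 13.4 ± 3.11 TPM, while CXCL8 was lowest at 0.0472 ± 0.0818 TPM. In defect CCL2 led at 278 ± 21.2 TPM, over VCAM1 at 121 ± 25.4 TPM and SOCS3 at 100.02 ± 11.3 TPM. In implantation A the order was VCAM1, SOCS3 and CCL2, at 52.4 ± 2.005, 42.9 ± 3.86 and 38.4 ± 2.11 TPM. SOCS3 led in implantation B at 263 ± 10.8 TPM, and CCL2 in ECs+ implantation at 131 ± 8.85 TPM. CXCL2 ranked behind CCL2, SOCS3 and VCAM1 in ECs+ implantation, at 64.7 ± 10.8 TPM. Its mean in defect, 1.51 ± 2.62 TPM, was above that of PTGS2 alone, but it averages values of 0 in the shallow libraries defect 1 and 2. In defect 3 CXCL2 was at 4.54 TPM, above CXCL8 at 3.87, IL1B at 2.49 and PTGS2 at 1.45 TPM. IL6, IL1B and CXCL8 averaged at most 12.4 TPM in every group.

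Defect was compared with normal to ask what the injured tissue expressed. Of the 10 genes 9 passed the count filter and were tested, and 7 of these were higher and 0 lower in defect. CXCL8 passed that filter only through its defect libraries (1, 1 and 49 counts), the group where it is high. IL6 likewise would not have passed without its defect libraries (1, 0 and 77 counts). The places of CXCL8 and IL6 among the 7 are therefore not separate from the filter. CXCL8 (log2 fold change 6.28 ± 1.06 SE, adjusted p = 5.07e-16), CCL2 (4.40 ± 0.146, adjusted p = 3.25e-48) and SELE (3.47 ± 0.157, adjusted p = 7.64e-37) changed most, and IL6 (3.33 ± 0.375) and SOCS3 (3.07 ± 0.101) followed. VCAM1 rose 3.24-fold and ICAM1 2.79-fold. CXCL2 (0.61 ± 0.345, adjusted p = 0.117) and PTGS2 (-0.17 ± 0.272, adjusted p = 0.59) did not pass, so the neutrophil chemokines CXCL8 and CXCL2 were not called alike, although their difference was not tested. Over all 17855 genes tested 63.9% were called, 32% as higher and 31.9% as lower, and the median log2 fold change was -0.05 against 3.07 for the 9 tested members. The 7 called members were also at least 2-fold apart, as were 25.5% of all genes. The IL6 call was lost without defect 3 (2.13, adjusted p = 0.504) and on log2(TPM + 1) values tested with limma (1.27, adjusted p = 0.231). CXCL8 could not be tested without defect 3, and moved to 8.59 without normal 1, which holds both of its normal counts. CXCL2 passed as higher without normal 3 (0.96, adjusted p = 0.0133), and PTGS2 passed as lower on log2(TPM + 1) values (-1.06, adjusted p = 0.0348), where defect 1 and 2 are listed at 0. Without defect 3 both remaining defect libraries have 0 counts of PTGS2, and its value (-8.78, adjusted p = 0.234) depends on the prior count. IL1B, untested in this fit, stood at 3.55 with no low-count filter (adjusted p = 1e-09). With both shallow libraries left out, leaving defect 3 alone and assuming that it varies like the other groups, IL6 was at 3.40 and CXCL8 at 6.32. CCL2, SELE, ICAM1, VCAM1 and SOCS3 passed in both of these settings.

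Other genes of the same pathways were read from lists of known members, given by counts and medians. Of 16 receptors of these cytokines 14 were higher and 1 lower in defect (median log2 fold change 1.30), among them CCR2, the receptor of CCL2 (3.44), IL1R2, a decoy receptor for IL-1 (3.91), and ACKR1, the endothelial carrier of chemokines (1.37). IL6ST was higher (1.07) and IL6R, the ligand-binding chain for IL-6, lower (-0.54). Among 24 genes of JAK-STAT signalling 15 were higher and 4 lower (median 0.56), with STAT3 at 1.28, JAK2 at 1.78 and SOCS1 at 0.45. Of 25 NF-κB genes 12 were higher and 6 lower (median 0.21): NFKBIZ, an inducible cofactor, stood at 1.71 and TNFAIP3, an inhibitor of the pathway, at 1.16, while NFKBIA, the inhibitor IκBα, did not pass (-0.04, adjusted p = 0.701). Of 21 prostaglandin genes 11 were higher and 2 lower (median 0.62). PTGES, which turns the product of PTGS2 into prostaglandin E2, rose (2.83), and PTGS1, the constitutive counterpart of PTGS2, fell (-0.97). In 22 genes of leukocyte adhesion 12 were higher and 4 lower (median 0.75), with SELP, the second endothelial selectin, at 2.22, the integrin chains ITGB2 at 1.39 and ITGA4 at 1.29, and the constitutive adhesion gene ICAM2 at -0.76. Of 23 other cytokines and chemokines 15 were higher and 4 lower (median 1.48), led by CCL21, a lymphatic chemokine (6.74). These medians stand beside a median of -0.05 over all genes tested.

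Cell type markers moved with these changes. All 12 macrophage and monocyte markers were higher in defect, with a summed level of 895 to 992 CPM against 352 to 364 in normal. Of 7 neutrophil markers 6 were higher and 0 lower (1011 to 1291 against 523 to 543 CPM), but MPO was at 0 in all defect libraries. All 8 fibroblast markers were higher (107350 to 111581 against 13982 to 14196 CPM), and 11 of 14 endothelial markers were lower (2681 to 2902 against 5166 to 5326 CPM). Of 8 T cell markers 5 were higher, but their summed level in defect (16.0 to 26.0 CPM) overlapped that in normal (18.5 to 20.8 CPM). Of 7 keratinocyte and urothelial markers 4 were higher and 2 lower (3142 to 3297 against 1777 to 1840 CPM), with UPK1A at 0 in defect. The part of these cells in the levels of the 10 genes was not tested.

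Implantation A was next compared with the same defect libraries. Of 9 genes tested, 7 were lower and 0 higher in implantation A, where 41.8% of 17855 genes were called, 20.4% as higher and 21.4% as lower. These 7 were also at least 2-fold apart, as were 11.5% of all genes. CXCL8 (-4.27 ± 0.551), IL6 (-3.25 ± 0.366) and CCL2 (-3.02 ± 0.120) fell most, and SELE (-2.05 ± 0.134), SOCS3 (-1.57 ± 0.0906), VCAM1 (-1.41 ± 0.0813) and ICAM1 (-1.31 ± 0.0973) fell less. CXCL2 (0.10, adjusted p = 0.83) and PTGS2 (0.44, adjusted p = 0.176) did not pass. IL6 again lost its call without defect 3 (-2.05, adjusted p = 0.614) and on log2(TPM + 1) values (-1.17, adjusted p = 0.289). PTGS2 passed as higher in implantation A when library size was the only scaling (0.75, adjusted p = 0.0117) and on log2(TPM + 1) values (1.31, adjusted p = 0.0232), and its value without defect 3 (9.05, adjusted p = 0.267) again depends on the prior count. CXCL8 and IL6 had passed the count filter only with their defect libraries, so their places among the 7 are not separate from it. CXCL8 moved to -5.35 without implantation A 3.

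The receptor list fell with them, with 15 of 16 lower and 0 higher (median -1.33), including CCR2 (-2.79), IL1R2 (-2.04), ACKR1 (-1.68) and CXCR2 (-1.504). IL6R did not pass (-0.05, adjusted p = 0.83). Of 24 JAK-STAT genes 11 were lower and 2 higher (median -0.21), with STAT3 at -0.70, and of 25 NF-κB genes 11 were lower and 1 higher (median -0.26), with NFKBIZ at -1.04 and NFKBIA at -0.57. Of 21 prostaglandin genes 12 were lower and 3 higher (median -0.42), of 22 adhesion genes 15 were lower and 1 higher (median -0.45), with SELP at -1.39 and ITGB2 at -1.34, and of 23 other cytokines and chemokines 16 were lower and 3 higher (median -1.08). The median over all genes was 0.02. All 12 macrophage and monocyte markers, 6 of 7 neutrophil markers and all 8 fibroblast markers were also lower. The endothelial list was split, with 4 of 14 higher and 6 lower, and its summed level was 2902 to 2925 CPM in implantation A against 2681 to 2902 in defect. The part of these cells was not tested.

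Against normal, implantation A kept some of these genes high. Of 9 tested, 7 were higher and 0 lower, in a comparison where 64.5% of genes were called, 32.2% as higher and 32.3% as lower. A called difference of at least 2-fold was found in 4 of the 9, and in 13.3% of all genes. SOCS3 (1.497 ± 0.0847, adjusted p = 9.6e-29), SELE (1.42 ± 0.142, adjusted p = 1.31e-15) and CCL2 (1.38 ± 0.140, adjusted p = 2.41e-15) were 2.82-fold, 2.68-fold and 2.60-fold higher, each without overlap. VCAM1 (0.29, adjusted p = 6.73e-05), ICAM1 (0.17, adjusted p = 0.0453), CXCL2 (0.71, adjusted p = 0.00614) and CXCL8 (2.01, adjusted p = 0.0379) also passed, whereas IL6 (0.08 ± 0.396, adjusted p = 0.872) and PTGS2 (0.27 ± 0.170, adjusted p = 0.159) did not. CXCL8 lost its call without implantation A 3 (0.93, adjusted p = 0.482), normal 2 (1.52, adjusted p = 0.138) or normal 3 (1.52, adjusted p = 0.131), with library size scaling (adjusted p = 0.0531), with DESeq2 (adjusted p = 0.197) and in the fit of all 15 libraries (adjusted p = 0.0628), and moved to 4.32 without normal 1. VCAM1 lost its call on log2(TPM + 1) values (0.39, adjusted p = 0.102). CXCL2 lost it with DESeq2 (0.67, adjusted p = 0.528) and without implantation A 3 (0.55, adjusted p = 0.0664), and ICAM1 without implantation A 2 (0.14, adjusted p = 0.189) or 3 (0.18, adjusted p = 0.0996) or normal 2 (0.16, adjusted p = 0.131) or 3 (0.16, adjusted p = 0.063) and with library size scaling (0.11, adjusted p = 0.172). DESeq2 called 4 of the genes. The 3 comparisons among normal, defect and implantation A share libraries and are not independent of each other.

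The pathway lists were more evenly split here. Receptors of these cytokines had 7 higher and 5 lower of 16 (median 0.12), with IL1R2 at 1.87, IL6ST at 0.62 and IL6R at -0.59. JAK-STAT genes had 12 higher and 6 lower of 24 (median 0.23), with STAT3 at 0.57 and SOCS1 at -0.53. NF-κB genes had 6 higher and 10 lower of 25 (median -0.05), with NFKBIA at -0.61, and adhesion genes 7 higher and 7 lower of 22 (median 0.05), with SELP at 0.83 and ICAM2 at -1.17. Prostaglandin genes had 12 higher and 5 lower of 21 (median 0.33), with PTGES at 2.05 and PTGS1 at -1.86, and other cytokines 14 higher and 6 lower of 23 (median 0.58). Macrophage markers were split, with 3 of 12 higher and 4 lower, and their summed level was 380 to 386 CPM against 352 to 364 in normal. Of 7 neutrophil markers 4 were higher and 1 lower (1127 to 1171 against 523 to 543 CPM), and of 7 keratinocyte and urothelial markers 6 were higher and 0 lower (3733 to 3761 against 1777 to 1840 CPM). All 8 fibroblast markers were higher (59293 to 59448 against 13982 to 14196 CPM), 13 of 14 endothelial markers were lower (2902 to 2925 against 5166 to 5326 CPM), and 0 of 8 T cell markers were higher and 1 lower. The part of these cells was not tested.

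ECs+ implantation was compared with implantation B in a fit of those 6 libraries, the other contrast the submitters planned. All 10 genes were tested, and 4 were higher and 5 lower in ECs+ implantation, against 75.8% of 17204 genes called, 37.8% as higher and 38.1% as lower. A called difference of at least 2-fold was found in 5 of the 10, and in 26.3% of all genes. IL6, with 6, 11 and 7 counts in ECs+ implantation, passed the count filter only with its implantation B libraries, the group where it is high. Its place among the genes called lower is therefore not separate from the filter. Of the chemokines CXCL2 and CCL2 rose, as did PTGS2: CXCL2 by 4.01-fold (log2 fold change 2.004 ± 0.104 SE, adjusted p = 9.8e-19), PTGS2 by 1.44-fold and CCL2 by 1.21-fold. VCAM1 rose 2.13-fold (1.09 ± 0.0373, adjusted p = 3.42e-31). IL6 was 16.0-fold lower (-4.00 ± 0.329, adjusted p = 1.04e-19), IL1B 4.06-fold (-2.02 ± 0.322), SELE 2.36-fold (-1.24 ± 0.0659), ICAM1 1.86-fold (-0.90 ± 0.0640) and SOCS3 1.44-fold lower (-0.52 ± 0.0289). CXCL8 did not pass (0.41 ± 0.257, adjusted p = 0.138), but passed as higher without ECs+ implantation 1 (0.66, adjusted p = 0.0145) and with library size scaling (0.65, adjusted p = 0.0199). The CCL2 call was lost on log2(TPM + 1) values tested with limma (0.08, adjusted p = 0.141), where SOCS3 stood at -1.37.

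The adhesion genes thus split, with VCAM1 higher and SELE and ICAM1 lower in ECs+ implantation, none of them overlapping between the groups. In the adhesion list as a whole 5 of 21 were higher and 11 lower (median -0.22 against 0.02 over all genes). ICAM2 (1.52) was higher, as was PECAM1 (1.41), whereas the leukocyte integrin chains ITGB2 (-1.23) and ITGA4 (-1.76) were lower and SELP did not pass (-0.10, adjusted p = 0.226). Of 16 receptors 14 were lower and 0 higher (median -0.91), with CCR2 at -2.61 and CXCR2 at -1.76. Of 24 JAK-STAT genes 17 were lower and 5 higher (median -0.61), with STAT3 at -1.41. Of 25 NF-κB genes 12 were lower and 6 higher (median -0.11), with NFKBIZ at -0.13 and NFKBIA at 0.48. Of 21 prostaglandin genes 15 were lower and 5 higher (median -0.78): PTGS1 (1.64) and PTGIS, the prostacyclin synthase (1.26), were higher, while PTGES (-2.63) and HPGD, which inactivates prostaglandins (-1.83), were lower. The 25 other cytokines and chemokines had 12 higher and 10 lower (median 0.33).

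Marker sums differed widely between these groups. Endothelial markers reached 4728 to 4821 CPM in ECs+ implantation against 1975 to 1982 in implantation B, with 12 of 14 higher and 1 lower. Macrophage and monocyte markers were at 370 to 378 against 743 to 745 CPM, with 10 of 12 lower and 1 higher. Neutrophil markers stood at 5.08 to 5.58 CPM against 1324 to 1333, with 5 of 6 tested lower, and MPO was at 0 in implantation B. Keratinocyte and urothelial markers stood at 3.83 to 4.41 CPM against 3696 to 3755, with 5 of 6 tested lower and UPK2 at 0 in ECs+ implantation. Fibroblast markers were at 12663 to 12716 against 97610 to 99136 CPM, all 8 lower, and 5 of 7 T cell markers were lower. CXCL2 and CXCL8 were thus at their ECs+ implantation levels while the neutrophil marker sum was at its lowest of the 5 groups. The keratinocyte and urothelial sum was lowest there too. In the other groups these sums averaged 532 and 1810 CPM in normal, 1183 and 3231 in defect, and 1150 and 3751 in implantation A. The neutrophil list includes S100A8, S100A9 and S100A12, and which cells made its transcripts was not tested. The part of these cells in the differences was not tested.

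**Figure D2:**
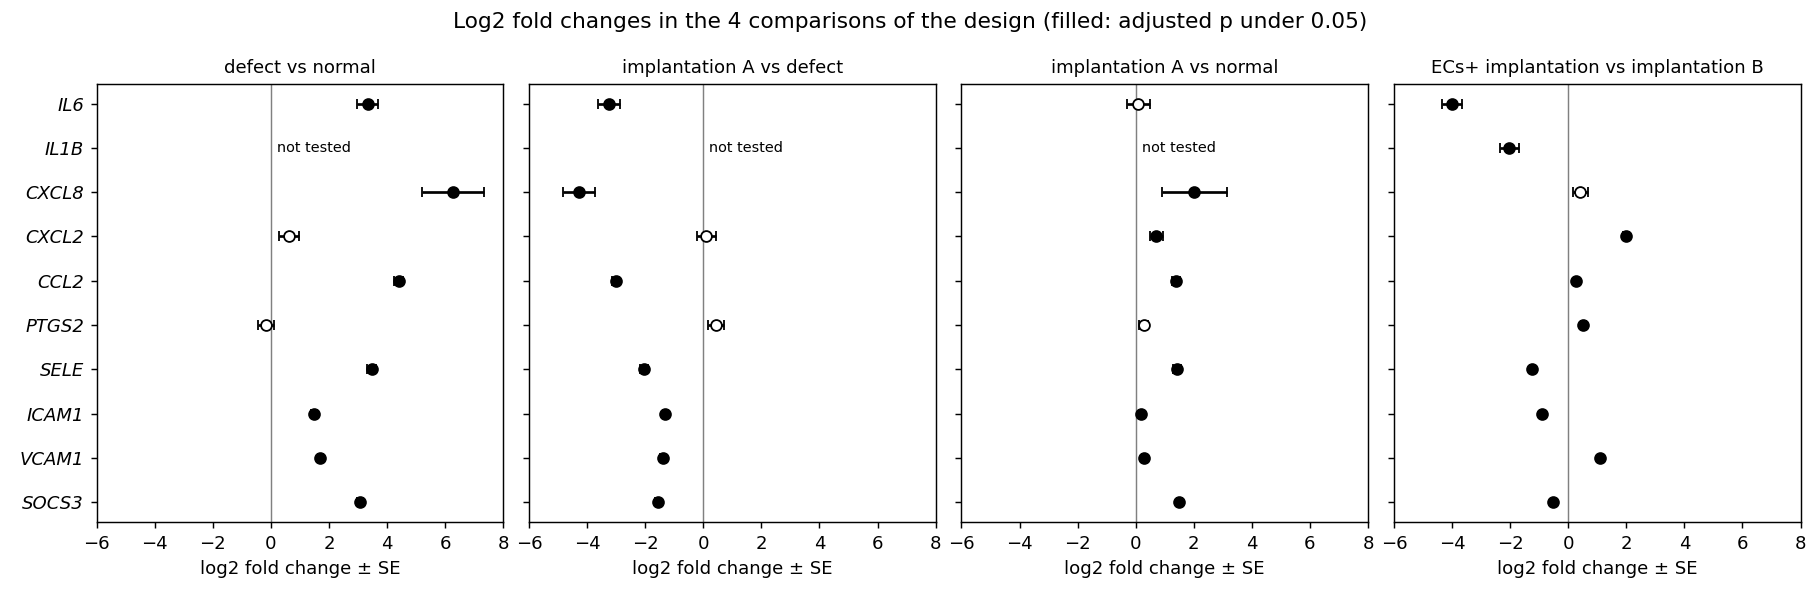
Log2 fold change of each gene with its standard error in the 4 comparisons the submitters planned; filled points passed the test (adjusted p under 0.05, edgeR) and open points did not, and IL1B is missing where it was not tested. In defect against normal 7 filled points lie above 0, in implantation A against defect 7 lie below 0, and in ECs+ implantation against implantation B 4 are called higher and 5 lower.

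The remaining contrasts were read from the fit of all 15 libraries and cross the 2 parts of the submitters' plan. All 10 genes were higher in implantation B than in implantation A, where 50.8% of 18316 genes were called, 27.2% as higher and 23.6% as lower. The difference was at least 2-fold in 8 of the 10, and in 8.95% of all genes. IL1B (4.09 ± 0.521), IL6 (3.71 ± 0.300) and CXCL8 (3.59 ± 0.557) differed most, SOCS3 was 6.60-fold and SELE 5.09-fold higher, and VCAM1 had the smallest difference (0.27 ± 0.0547, adjusted p = 1.86e-05). The VCAM1 call was lost with library size scaling (0.02, adjusted p = 0.705) and on log2(TPM + 1) values (0.06, adjusted p = 0.827), and CXCL2 missed the threshold on the latter (1.55, adjusted p = 0.0551). On log2(TPM + 0.1) values the calls of IL6 (adjusted p = 0.1), IL1B (0.0559), CXCL2 (0.399), PTGS2 (0.126) and VCAM1 (0.88) were lost, and without implantation A 3 CXCL8 moved to 4.68. The labels do not say what was done differently in the groups called implantation A and implantation B. Marker lists moved with this contrast: all 12 macrophage and monocyte markers, all 7 neutrophil markers tested and all 8 fibroblast markers were higher in implantation B, 4 of 7 keratinocyte and urothelial markers were higher and 0 lower, 2 of 8 T cell markers were higher, and 12 of 14 endothelial markers were lower. The T cell sum was 14.1 to 15.1 CPM in implantation A and 14.7 to 19.97 in implantation B, the other sums are given above, and the part of these cells was not tested.

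Against normal, all 10 genes were higher in implantation B, with 73.8% of genes called, 37.1% as higher and 36.7% as lower. In ECs+ implantation 8 were higher and 0 lower, with 71.3% called, 35.7% as higher and 35.6% as lower. In each contrast 8 members were called at least 2-fold apart, against 26.2% of genes for implantation B and 21.4% for ECs+ implantation. Both contrasts share the normal libraries, so their values stand side by side only as descriptions. SOCS3 was at 4.22 in implantation B and 3.73 in ECs+ implantation, CCL2 at 3.25 and 3.57, and PTGS2 at 2.49 and 3.05. IL6 was at 3.80 and -0.17 (adjusted p = 0.729 for ECs+ implantation), SELE at 3.77 and 2.57, ICAM1 at 0.81 and -0.05 (adjusted p = 0.549 for ECs+ implantation), VCAM1 at 0.57 and 1.69, CXCL2 at 2.61 and 4.64, and IL1B at 3.89 and 1.91. CXCL8 was at 5.62 and 6.07, from a normal group with 2 counts, and at 8.05 and 8.46 without normal 1, which holds both. Without normal 2 or normal 3 it was at 4.98 or 4.97 in implantation B. In ECs+ implantation ICAM1 passed as lower than normal with library size scaling (-0.16, adjusted p = 0.0392) and on TPM (-0.42, adjusted p = 0.00177), and IL1B lost its call on TPM (0.54, adjusted p = 0.532). In implantation B CXCL2 lost its call on log2(TPM + 0.1) values (2.55, adjusted p = 0.0899). Against normal, implantation B had 11 of 12 macrophage and monocyte markers higher and 0 lower, 6 of 7 neutrophil markers higher and 1 lower, all 8 fibroblast markers higher, 5 of 7 keratinocyte and urothelial markers higher, 2 of 8 T cell markers higher and 1 lower, and all 14 endothelial markers lower. ECs+ implantation had 7 of 12 macrophage and monocyte markers higher and 4 lower, 2 of 7 neutrophil markers higher and 4 lower, 4 of 8 fibroblast markers higher and 4 lower, 6 of 7 keratinocyte and urothelial markers lower, 5 of 8 T cell markers lower, and 5 of 14 endothelial markers higher and 8 lower. The part of these cells was not tested.

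**Figure D3:**
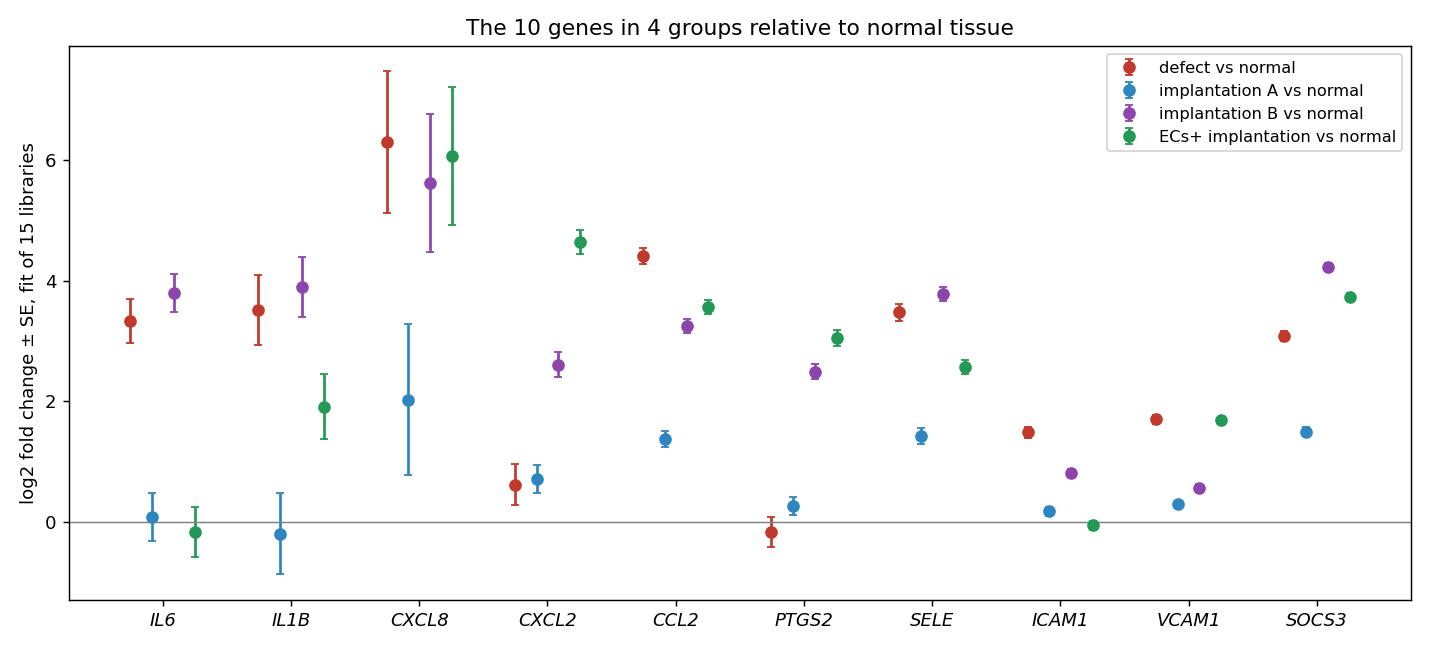
Log2 fold change over normal, with its standard error, of each gene in the other 4 groups, from the fit of all 15 libraries. IL6 and ICAM1 lie near 0 in ECs+ implantation and above 0 in implantation B, whereas VCAM1 and CXCL2 lie higher in ECs+ implantation than in implantation B.

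Because E-selectin is made by endothelium, and ICAM-1 and VCAM-1 in part, their counts were also set against the summed counts of the 14 endothelial markers in the same library, a measure added after the data were seen and given without a test. SELE came to 0.0780% ± 0.0125 (SD, n = 3) of that sum in normal and 0.362% ± 0.0209 in implantation A. It came to 0.473% ± 0.0421 in ECs+ implantation, 1.21% ± 0.0906 in defect and 2.29% ± 0.0288 in implantation B. All 5 groups were again apart, and implantation B stood 29.4-fold above normal. ICAM1 came to 0.545% ± 0.0134 in normal and 0.539% ± 0.0227 in ECs+ implantation, against 1.07% ± 0.0585 in implantation A, 2.05% ± 0.0547 in implantation B and 2.18% ± 0.364 in defect. VCAM1 was at 1.12% ± 0.122 in normal, 2.36% ± 0.0904 in implantation A, 3.55% ± 0.0872 in implantation B, 3.69% ± 0.0234 for ECs+ implantation and 5.66% ± 0.947 in defect. On this measure VCAM1 in ECs+ implantation was nearest to implantation B, without overlap, where by CPM it had overlapped defect.

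**Figure D4:**
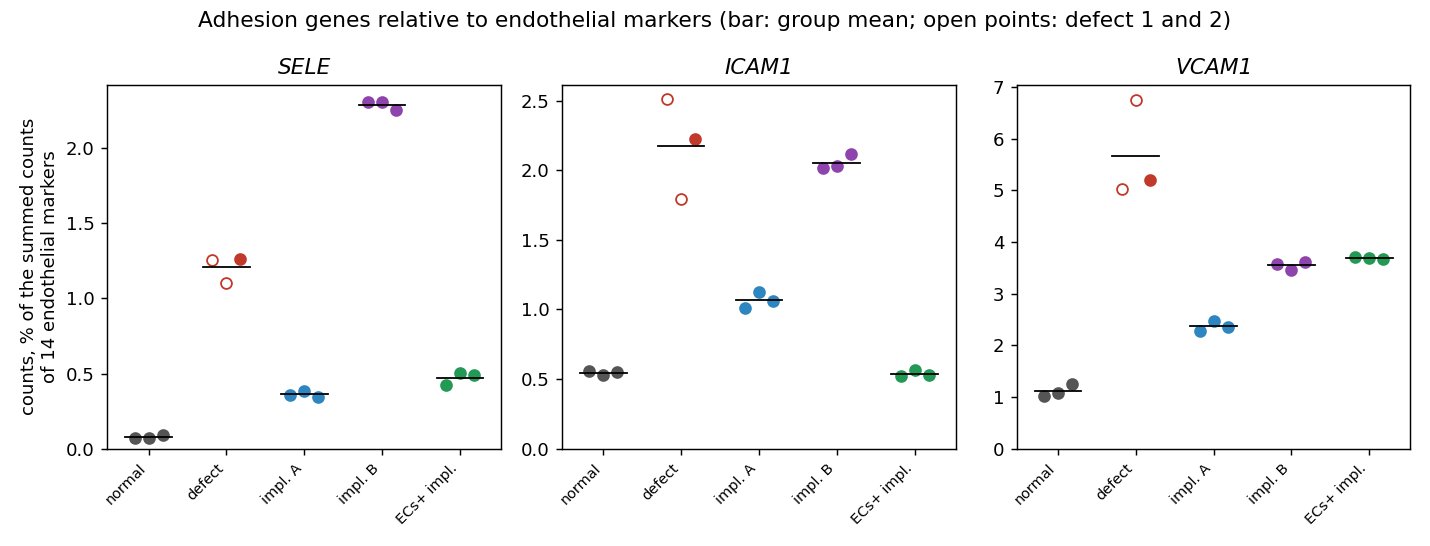
Counts of SELE, ICAM1 and VCAM1 as a percentage of the summed counts of 14 endothelial markers, by library and group; open points are the shallow libraries defect 1 and 2. SELE runs from 0.0780% in normal to 2.29% in implantation B, and ICAM1 in ECs+ implantation (0.539%) stands beside normal (0.545%).

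The genes whose pattern was most like each member were listed by Pearson's r over the 15 libraries on log2 CPM, among 10316 genes with a symbol and sufficient level. These r values are descriptions over libraries that share group, depth and scaling. SELE had CCPG1 (r = 0.994), EDIL3 (0.992) and CD109 (0.991), and SOCS3 had GLUL (0.987), CD46 (0.971) and SBDS (0.970). ICAM1 was most like ZMIZ1 (0.988), LTBP2 (0.985) and CNDP2 (0.975), and VCAM1 like CNRIP1 (0.976), SRGN (0.967) and SOD3 (0.964). CCL2 had GM2A (0.982), TFG (0.981) and WIF1 (0.977), and CXCL8 had WIF1 (0.965), MMP3 (0.960) and RNF128 (0.960), so WIF1, an inhibitor of Wnt ligands, was near both. CXCL2 was most like IRF2BP2 (0.978), KLF6 (0.978) and EIF4E3 (0.977), and PTGS2 like SLC39A8 (0.979), ZNF664 (0.973) and F11R (0.966). IL1B had DYRK3 (0.947), MYD88 (0.934) and PIGY (0.927), and IL6 had RAB22A (0.947), GOLGA4 (0.940) and ZFHX3 (0.939). Likeness of pattern did not mean a like span of levels. RAB22A ran from 55.1 CPM in normal to 75.4 in implantation B, where IL6 ran from 0.485 to 6.84 CPM, while LTBP2 ran from 86.8 CPM in its lowest group to 652 in its highest, a wider span than that of ICAM1. MMP3, the matrix protease stromelysin-1, ran from 5.70 CPM in normal and 20.8 in implantation A to 184 in ECs+ implantation, 273 in implantation B and 335 in defect.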

How the data were processed

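Raw read counts per gene and TPM were used as the authors deposited them for the 15 libraries. Per the submitters' processing notes the build was Sscrofa11.1 and the tools included HISAT2, HTSeq, fastp and DESeq2, with no version, and per the labels libraries were made with the TruSeq RNA v2 kit; strand setting, annotation and the TPM tool are not given in the sources used here. Of the 26654 genes, 26630 (99.9%) matched RefSeq. Deposited counts were tested with edgeR 4.0.16 (R 4.3.3; TMM, filterByExpr, robust quasi-likelihood F test, two-sided, Benjamini-Hochberg over all genes tested, threshold 0.05). Implantation A, defect and normal shared a fit of 9 libraries, implantation B and ECs+ implantation a fit of 6, and all other contrasts and neighbouring groups a fit of 15. Alternatives used limma 3.58.1, DESeq2 1.42.0, deposited TPM on log2(TPM + 1) and log2(TPM + 0.1), other filters and scalings, thinning and libraries left out. The scripts were tested on simulated counts.

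The 10 members and the gene lists were chosen with earlier results of these data known. The rule for named genes took all members, up to 3 list genes with the smallest p in each comparison, direct receptors, partners, inhibitors or paralogs of members, and, for likeness, the 3 genes with the largest r per member. Besides the lists in the report, contractile smooth muscle, B and plasma cell, mast cell, adipocyte and erythroid markers were read. Of the listed genes 9 are not in the table used.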

Additional observations from a re-analysis of the deposited data

How the results depend on the processing

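Most numbers of calls depended on depth. With every library thinned to the smallest total, 2 members were called in defect against normal, 2 in implantation A against defect, 1 in implantation A against normal, 2 in implantation B against A, 3 in implantation B against normal and 3 in ECs+ implantation against normal, with 5 neighbouring pairs. Genes called fell to 2272, 930, 1414, 729, 2461 and 2093 in that order. Thinning also removed genes from the test: in defect against normal 2 members and 5353 genes passed the count filter, against 9 and 17855 without thinning. The 2 members tested there were the 2 called. At least 2-fold was met by 4 members in implantation A against normal, 5 in ECs+ implantation against implantation B and 14 neighbouring pairs, and by 4561, 2056, 2375, 4521, 1639, 4797 and 3919 genes over the 7 comparisons in the order of the report. In implantation A against normal, DESeq2 called 4 members and limma on log2(TPM + 1) or log2(TPM + 0.1) called 3, and implantation B against A had 5 with TPM + 0.1. Genes called were 7436 with DESeq2 and 5353 with voom in defect against normal, 3792 and 1799 in implantation A against defect, 6876 with DESeq2, 3299 with TPM + 1 and 2954 with TPM + 0.1 in implantation A against normal, and 6192, 3537 and 3102 in implantation B against A. In the same TPM pseudocounts the contrasts with normal gave 7838 and 6850 for implantation B and 7453 and 6738 for ECs+ implantation. With main counts of 11407, 7465, 11522, 13048, 9307, 13511 and 13056 genes, leaving out 1 library gave 3521 to 11950, 1455 to 7556, 10583 to 11831, 12516 to 13016, 8305 to 8456, 12946 to 13618 and 12622 to 13114 genes; 5 to 9, 5 to 8, 4 to 7, 9 to 10, 10, 10 and 8 members; and 23 to 29 neighbouring pairs. The cause of these differences was not tested, apart from the fewer counts or stricter rule that a setting imposes.

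CXCL2 turned lower in defect than normal with TPM + 1 (-1.23), with TPM + 0.1 (-3.17) and without defect 3 (-7.57, set by the prior count because both remaining libraries have 0 counts), and stood at 0.96 without normal 3. In implantation A against defect it ran from -0.0562 without implantation A 3, where it turned lower, to 8.29 without defect 3. VCAM1 turned lower in implantation A than normal when thinned (-0.0401). Replicate numbers did not pair the libraries: 30 correlations of same-numbered deviations ran from -0.156 to 0.177, with 1 over 0.1, and 14 of 60 comparisons matched best with their own number. With a replicate block 66 of 67 member results kept their call, ICAM1 in implantation A against normal lost it (0.17, adjusted p = 0.0681), and the counts were 7, 7, 6, 9, 10, 10 and 8 members and 10663, 6262, 11261, 12957, 9170, 13431 and 12972 genes.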

Other observations

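Other chemokines set ECs+ implantation apart from implantation B. These genes, except CCL5, were picked from the cytokine list after their values were seen. CCL5, a T cell and monocyte chemokine, stood at 71.1 to 78.2 CPM in ECs+ implantation, 4.23 to 6.20 in implantation B and 13.3 to 14.9 in normal (log2 fold change 3.77 ± 0.104 SE over implantation B, adjusted p = 1.02e-38). The interferon-inducible chemokines CXCL9 (3.34 ± 0.239, adjusted p = 3.55e-21) and CXCL10 (1.90 ± 0.105, adjusted p = 5.92e-23) were also higher there, as were CXCL13, a B cell chemokine (3.32 ± 0.157), and CCL4 (1.78 ± 0.103). TNF was at 2.28 to 2.57 CPM in implantation B and 0.274 to 0.522 in ECs+ implantation (-2.57 ± 0.385), and LIF (-2.53 ± 0.251) and IL1A (-1.87 ± 0.199) were lower as well. T cell markers summed to 10.2 to 11.3 CPM in ECs+ implantation and 14.7 to 19.97 CPM in implantation B, and their part was not tested.

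CCL21, which guides dendritic and T cells to lymphatic vessels, averaged 1.07 CPM in normal, 113 in defect, 45.9 in implantation A, 57.8 in implantation B and 7.71 in ECs+ implantation. Its libraries did not overlap between normal (0.936 to 1.18 CPM) and ECs+ implantation (6.69 to 8.27 CPM).

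Deposited TPM and counts did not scale alike in all groups. The median TPM per CPM over 10730 genes was 0.504 in normal, 0.574 in defect, 0.566 in implantation A, 0.580 in implantation B and 0.410 in ECs+ implantation. For SOCS3 the ratio was 1.11 in implantation B and 0.519 in ECs+ implantation, and its log2 difference between these groups was -0.52 by counts and -1.37 on log2(TPM + 1).

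Of the remaining marker lists, smooth muscle had 4 of 10 higher and 4 lower in defect against normal, all 10 higher in implantation A against defect, 9 higher and 1 lower in implantation A against normal, and 7 higher and 3 lower in ECs+ implantation against implantation B. In the same order, B and plasma cell markers had 3 higher and 2 lower, 1 and 3, 1 and 3, and 0 and 2 of 6, mast cell markers 2 and 1, 2 and 2, 1 and 2, and 1 and 2 of 4, adipocyte markers 1 and 3, 1 and 1, 0 and 3, and 3 and 1 of 4, and erythroid markers 0 and 2, 1 and 0, and 1 and 1 of 2, then 0 and 1 of 1.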
